A study of Danio rerio with 4 samples.

Results

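The subject is a set of 10 genes of blood vessels, followed across 4 RNA-seq libraries of zebrafish (Danio rerio) pharyngeal arch cells at the 36 hours post-fertilization (hpf) stage. They are fli1a, fli1b, kdrl, cdh5, tie1, tek, flt1, flt4, etv2 and egfl7, taken by symbol from a table of 31953 genes, and all of them were found. The cells had been sorted for a pair of reporters at once, fli1a:GFP and sox10:DsRed, so fli1a is the gene behind one of the gates. They came from embryos mutant for both nr2f2 and nr2f5 (2 libraries, from 37 and 84 embryos in an order that is not given) and from embryos with sox10:Gal4 and UAS:Nr2f5 (1 library, 84 embryos), in which Gal4 is meant to drive Nr2f5 in cells that use the sox10 promoter. Embryos with sox10:Gal4 alone were the control (1 library, 69 embryos). The cells numbered 18858 and 30655 for the mutants (order again not given), 56866 for sox10:Gal4 with UAS:Nr2f5 and 86517 for the control. All embryos carried both reporters, were moved from 28.5 °C to 22 °C at 27 hpf to slow growth, and were pooled within a library. The mutants were picked by ocular coloboma, while the other groups were genotyped from fin biopsies at 24 hpf. The labels name neither the alleles nor a Gal4 driver in the mutants, so the driver, the biopsy and the mutations cannot be told apart in comparisons with the mutants.

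Endothelial cells line the blood vessels and the lymphatics. Ets-family transcription factors (Etv2, Fli1a, Fli1b) switch on their program, VEGF ligands signal to them through the tyrosine kinase receptors encoded by kdrl, kdr, flt1 and flt4, angiopoietins signal through Tek with its relative Tie1, and Cdh5 (VE-cadherin) holds the cells together. In zebrafish, fli1a is active both in endothelium and in the neural crest that fills the pharyngeal arches, whereas sox10 marks the crest lineage. A gate for both reporters is therefore meant to keep arch crest and to leave out vessels. In the mouse, Nr2f2 (COUP-TFII) is known for setting the identity of veins.

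Levels are in RPM, taken to be reads assigned to the gene out of every 1000000 in the library. One read was worth 0.0287 and 0.0441 RPM in mutant 1 and mutant 2, 0.0987 RPM in the library labelled UAS:Nr2f5 and 0.0334 RPM in the control. These steps imply totals of 34787206 and 22677739 reads in the mutants, 10127922 in the library labelled UAS:Nr2f5 and 29943419 in the control. Of these, the listed genes hold 5286229 and 3590905 in the mutants, 1498321 in the library labelled UAS:Nr2f5 and 4467228 in the control. A gene listed at 0 can have had up to 3 reads' worth (0.0862 and 0.132 RPM in the mutants, 0.296 RPM in the library labelled UAS:Nr2f5 and 0.1002 RPM in the control). RPM values were not divided by gene length, so levels are compared between libraries and not between genes. The targeted gene nr2f5 was at 12.2 and 14.7 RPM in the mutants, at 30.3 RPM in the library labelled UAS:Nr2f5 and at 28.8 RPM in the control. The other, nr2f2, had 38.9 and 30.9 RPM in the mutants, 28.1 RPM in the library labelled UAS:Nr2f5 and 41.4 RPM in the control. nr2f5 RNA was therefore not raised where the label states extra Nr2f5, and any direction drawn from that library depends on its label.

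The gate gene fli1a, an Ets factor, was read deeply in every library. It stood at 51.5 and 48.1 RPM in the mutants (mean 49.8 ± 2.42, SD, n = 2), at 17.97 RPM in the library labelled UAS:Nr2f5 and at 38.3 RPM in the control. The mutants lay closest together and highest, and the library labelled UAS:Nr2f5 lay far below all the others. Against that library the mutant mean was 2.77-fold higher, a log2(RPM + 1) difference of 1.42 ± 0.17 (SE) that passed limma's test over all genes (adjusted p = 0.00759). Against the control it was 1.30-fold higher without passing (log2 difference 0.37 ± 0.17, limma adjusted p = 0.444). Between the single libraries, the one labelled UAS:Nr2f5 was 2.13-fold lower than the control (95% counting interval 1.82 to 2.51). By counting error alone, mutant 1 was 1.34-fold higher than the control (1.25 to 1.45) and mutant 2 was 1.25-fold higher (1.15 to 1.36). In bulk samples like these, fewer cells that use a gene and less of its RNA per cell cannot be told apart.

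The gene of the second reporter, sox10, was also highest in the mutants and lowest in the library labelled UAS:Nr2f5. It was at 17.4 and 24.9 RPM in the mutants, 5.73 RPM in the library labelled UAS:Nr2f5 and 8.72 RPM in the control. Like fli1a, it rose in the mutants relative to the library labelled UAS:Nr2f5 (log2 difference 1.70 ± 0.27, limma adjusted p = 0.0145). Against the control, sox10 did not pass (log2 difference 1.17 ± 0.27, limma adjusted p = 0.126). Of the 9 matched genes of an arch crest list, sox10 among them, limma called 6 higher and 0 lower in the mutants relative to the library labelled UAS:Nr2f5 (sox10, snai2, dlx2a, twist1a, twist1b and prrx1a), beside 11.2% of all genes higher and 8.92% lower, and the list's median log2 difference was 1.29, beside 0.17 over all 11391 genes tested. Of the 9, foxd3 alone was not above that library in both mutants, at 2.09 and 2.76 RPM in the mutants, 2.67 RPM in the library labelled UAS:Nr2f5 and 0.5698 RPM in the control. Scaling to that crest list, which does not hold fli1a, by construction lowers every gene in the mutants relative to that library. The median over all genes became −0.997, and the fli1a difference became 0.08 (limma adjusted p = 0.700).

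The remaining Ets genes among the 10 were close to the limit of detection. The paralog fli1b was read once in mutant 1 (0.0287 RPM) and listed at 0 in mutant 2, against 6 reads (0.592 RPM) in the library labelled UAS:Nr2f5 and 15 reads (0.501 RPM) in the control. Both mutants were below both other libraries. Mutant 1 was 17.4-fold lower than the control (95% counting interval 2.68 to 734). Mutant 2 was 3.79-fold lower when set at 3 reads, and at least 2.72-fold lower by its 95% counting interval. Between the other libraries the ratio was 1.18 (0.376 to 3.23), the one labelled UAS:Nr2f5 over the control.

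The early vessel regulator etv2 was also read only a few times. It had 2 and 0 reads in the mutants (0.0575 and 0 RPM), 8 reads (0.790 RPM) in the library labelled UAS:Nr2f5 and 3 reads (0.1002 RPM) in the control. The library labelled UAS:Nr2f5 was the highest, at a ratio of 7.88 to the control, but the counting interval of that ratio runs from 1.89 to 46.1. Mutant 1 was 13.7-fold lower than that library (2.74 to 133). Mutant 2 was 5.97-fold lower when set at 3 reads, and at least 3.82-fold lower by its 95% counting interval. In the RefSeq gene table of the assembly GRCz12tu, etv2 (there etsrp) and fli1b (there fli1rs) are next to each other, and a caspase gene, caspa, overlaps both. fli1a (there fli1) is the neighbour of another Ets gene, ets1. Whether the authors counted by strand is not given in the sources used here, so reads from overlapping genes cannot be told apart.

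**Figure D1:**
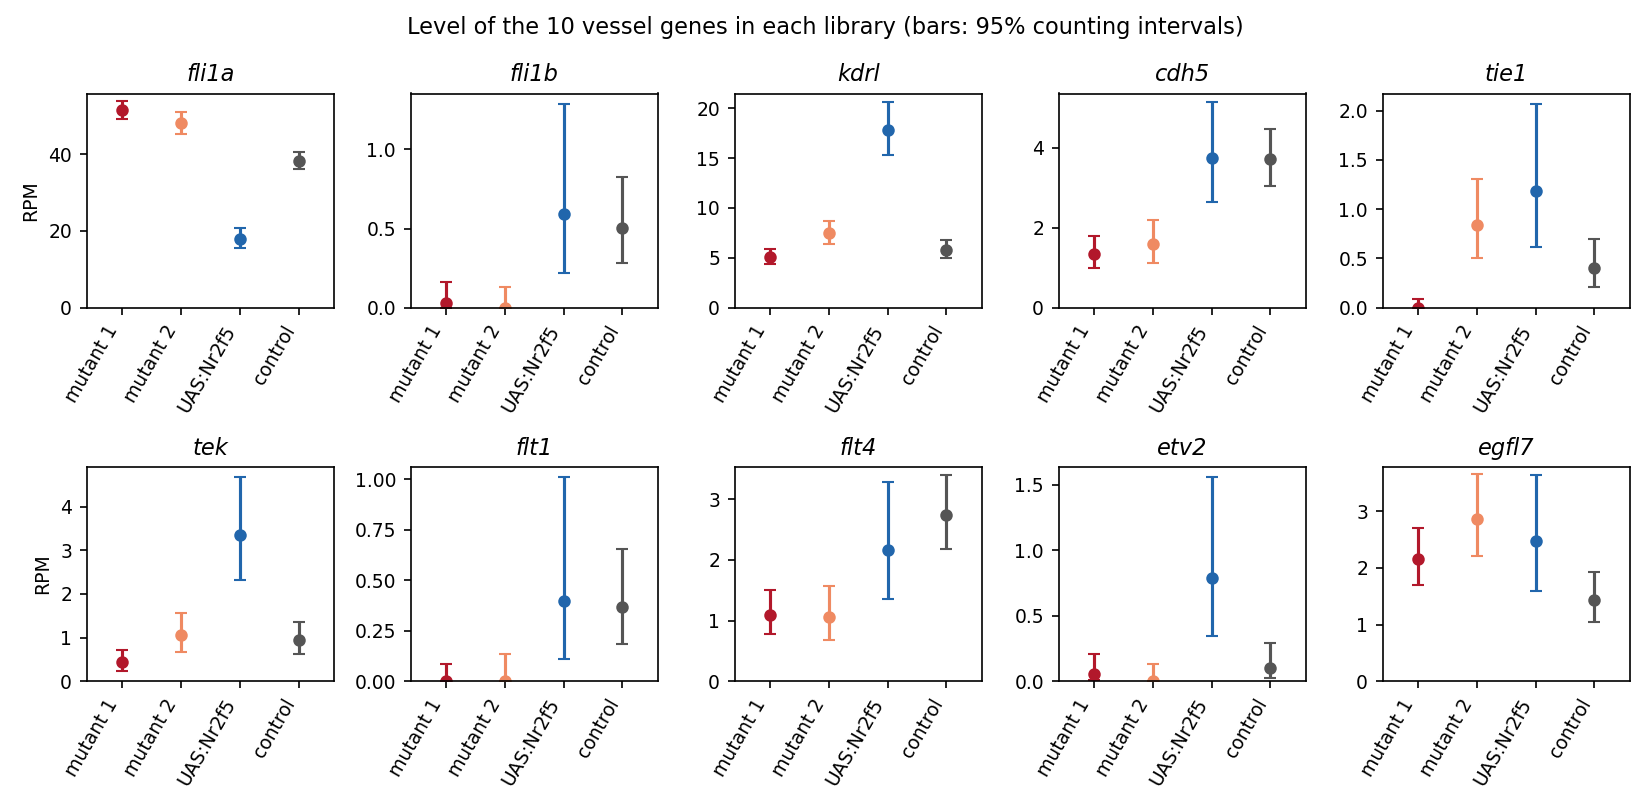
Level in RPM of each vessel gene in mutant 1, mutant 2, the library labelled UAS:Nr2f5 and the control, 1 point per library with its 95% counting interval (for a gene at 0, the bar ends at 3 reads). fli1a was highest in the mutants, at 51.5 and 48.1 RPM, and kdrl in the library labelled UAS:Nr2f5, at 17.9 RPM.

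Among the VEGF receptor genes, kdrl had the clearest difference, and it ran against fli1a. It was at 5.06 and 7.50 RPM in the mutants (mean 6.28 ± 1.72, SD, n = 2), 17.9 RPM in the library labelled UAS:Nr2f5 and 5.81 RPM in the control. The library labelled UAS:Nr2f5 stood alone above the others, and the control lay between the mutants. kdrl, the main VEGF receptor gene of zebrafish vessels, fell in the mutants against that library (2.85-fold, log2 difference −1.40 ± 0.30, limma adjusted p = 0.0293). Against the control, the mutants' log2 difference was 0.08 (95% interval −0.66 to 0.81, limma adjusted p = 0.958). The library labelled UAS:Nr2f5 was 3.08-fold higher than the control (95% counting interval 2.48 to 3.81). Behind these values were 176 and 170 reads in the mutants, 181 in the library labelled UAS:Nr2f5 and 174 in the control, from libraries of unequal totals. With a pseudocount of 0.1, or without limma's trend, the call was lost (limma adjusted p = 0.0546 and 0.0577).

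A second zebrafish gene of this receptor type, kdr, was also highest in that library, but both mutants lay below the control. It was at 0.345 and 0.176 RPM in the mutants, 2.17 RPM in the library labelled UAS:Nr2f5 and 0.935 RPM in the control. The ratio of the library labelled UAS:Nr2f5 to the control was 2.32 (95% counting interval 1.27 to 4.21).

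The receptor gene of veins and lymphatics, flt4, was lower in both mutants. It was at 1.09 and 1.06 RPM there (mean 1.08 ± 0.0241, SD, n = 2), at 2.17 RPM in the library labelled UAS:Nr2f5 and at 2.74 RPM in the control. The mutants were close together. Their counting intervals (0.773 to 1.499 and 0.678 to 1.575 RPM) lay below that of the control (2.18 to 3.399 RPM) and overlapped that of the library labelled UAS:Nr2f5 (1.36 to 3.289 RPM). Neither difference passed, with a log2 difference of −0.85 ± 0.34 against the control (limma adjusted p = 0.367) and −0.61 ± 0.34 against the library labelled UAS:Nr2f5 (limma adjusted p = 0.242). By counting error alone mutant 1 was 2.51-fold lower than the control (1.69 to 3.79) and mutant 2 was 2.59-fold lower (1.63 to 4.27). Although the single intervals overlapped, the ratios to the library labelled UAS:Nr2f5 were also apart by counting error alone. Mutant 1 was 1.99-fold lower than that library (1.12 to 3.45) and mutant 2 was 2.05-fold lower (1.097 to 3.82).

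flt1, whose product binds VEGF and limits its signal, was listed at 0 in both mutants. It had 4 reads (0.395 RPM) in the library labelled UAS:Nr2f5 and 11 reads (0.367 RPM) in the control. Set at 3 reads per library, mutant 1 was 4.26-fold and mutant 2 was 2.78-fold lower than the control. By their 95% counting intervals they were at least 2.92-fold and 1.90-fold lower. The ratio of flt1 in the library labelled UAS:Nr2f5 over the control was 1.08 (0.250 to 3.63).

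The Tie receptor genes differed between the mutants themselves. tek, the angiopoietin receptor gene, was at 0.431 and 1.06 RPM in the mutants (mean 0.745 ± 0.443, SD, n = 2), 3.36 RPM in the library labelled UAS:Nr2f5 and 0.935 RPM in the control. As with kdrl, only the library labelled UAS:Nr2f5 stood apart, and the control lay between the mutants. It was 3.59-fold higher than the control (95% counting interval 2.11 to 6.15). The mutants' log2 difference to it, −1.34 ± 0.37, was just short of the threshold (limma adjusted p = 0.0509), and it passed after median-ratio scaling or scaling to column sums (limma adjusted p = 0.0414 and 0.0460). Against the control the difference was −0.17 ± 0.37 (limma adjusted p = 0.901). Only genes averaging 1 RPM or more were tested, and tek reached that average only through the library labelled UAS:Nr2f5. Its being lower in the mutants than in that library was therefore partly built into its being tested.

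tie1, the gene of the partner receptor, was listed at 0 in mutant 1 and had 19 reads (0.838 RPM) in mutant 2. It had 12 reads (1.18 RPM) in the library labelled UAS:Nr2f5 and 12 reads (0.401 RPM) in the control. The mutants thus lay on either side of the control. Mutant 1 was 4.65-fold lower when set at 3 reads, and at least 3.23-fold lower by its 95% counting interval. Mutant 2 was at 2.09 times the level of the control (0.964 to 4.72). The library labelled UAS:Nr2f5 was at 2.96 times the level of the control (1.21 to 7.19). In the RefSeq table an antisense RNA, lnc.tie1, overlaps tie1. Of the 6 vessel genes with at least 20 reads over both mutants, kdrl and tek were further apart between mutant 1 and mutant 2 than counting error allows at 95%. The same held for 50.6% of 13823 genes with that many reads, so counting intervals understate the spread between libraries.

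The junction gene cdh5 was lower in the mutants than in both other libraries. It was at 1.35 and 1.59 RPM in the mutants (mean 1.47 ± 0.167, SD, n = 2), 3.75 RPM in the library labelled UAS:Nr2f5 and 3.71 RPM in the control. The library labelled UAS:Nr2f5 and the control had a ratio of 1.01 (95% counting interval 0.681 to 1.48), and the counting intervals of both lay above those of the mutants. The mutants' log2 difference was −0.93 ± 0.36 against the control (limma adjusted p = 0.352) and −0.95 ± 0.36 against the library labelled UAS:Nr2f5 (limma adjusted p = 0.115), neither past the threshold. By counting error, mutant 1 was 2.74-fold lower than the control (1.93 to 3.95) and mutant 2 was 2.34-fold lower (1.59 to 3.502).

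egfl7, a secreted factor of endothelial cells that guides vessel tubes, did not share that order. It was at 2.16 and 2.87 RPM in the mutants (mean 2.51 ± 0.502, SD, n = 2), 2.47 RPM in the library labelled UAS:Nr2f5 and 1.44 RPM in the control. The control was the lowest, and the library labelled UAS:Nr2f5 lay between the mutants. The mutants' log2 difference was 0.52 ± 0.37 against the control (limma adjusted p = 0.648) and 0.01 ± 0.37 against the library labelled UAS:Nr2f5 (limma adjusted p = 0.986, 95% interval −0.90 to 0.92). In the RefSeq table the gene overlaps a long noncoding RNA and the microRNA gene mir126b.

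Only genes that averaged 1 RPM or more were tested, which left 6 of the 10 (fli1a, kdrl, cdh5, tek, flt4 and egfl7), while fli1b, tie1, flt1 and etv2 were not. Between the mutants and the control limma called 0 of the 6, beside 1.04% of all 11391 genes (0.0263% higher and 1.01% lower). At an unadjusted p under 0.05 there were 2 of the 6 (cdh5 and flt4, both lower), beside 13.2% of all genes. These 2 passed limma when scaled to the crest list (adjusted p = 0.0296 and 0.0322), which moved the median of all genes to −0.62 and called 2779 genes in all. Both mutants were above the control for 2 of the 6 (39.1% of all genes) and below it for 2 of the 6 (33.2%). The median log2 difference of the 6 was −0.05, beside 0.03 over all genes tested.

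Between the mutants and the library labelled UAS:Nr2f5, limma called 2 of the 6, beside 20.1% of all genes. They were fli1a, higher, and kdrl, lower, beside 11.2% of all genes higher and 8.92% lower. The split over all genes depends on the scale, with 1271 higher and 1016 lower as deposited, 928 and 1197 under median-ratio scaling and 418 and 7067 when scaled to the crest list. Without the filter on low values limma called 0 genes, fli1a and kdrl included (adjusted p = 0.118 and 0.232). Both mutants lay below that library for 4 of the 6 (33.5% of all genes) and above it for 1 (50.7%). The median of the 6 was −0.78, beside 0.17 over all genes. Between the library labelled UAS:Nr2f5 and the control, 3 of the 6 were at least 2-fold apart on the log2(RPM + 1) scale, kdrl and tek higher and fli1a lower, beside 16.0% of all genes (6.79% higher and 9.17% lower). The median of the 6 was 0.26, beside −0.11. The counts and medians that involve the library labelled UAS:Nr2f5 include tek, which reached the filter only through that library. The comparison of that library with the control has 1 library on each side and no test. The comparisons share libraries, so their values are not independent. The mutant pair gives limma its 1 residual degree of freedom, and each lone library is assumed to vary like that pair.

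**Figure D2:**
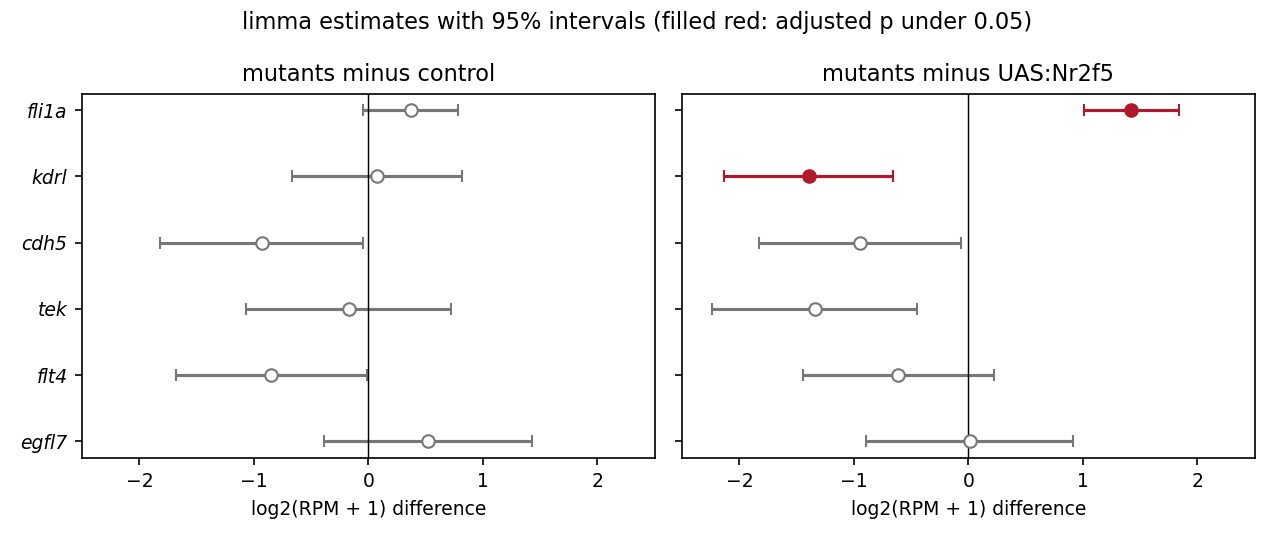
Differences in log2(RPM + 1) with their 95% intervals from limma for the 6 tested vessel genes, mutants minus control on the left and mutants minus the library labelled UAS:Nr2f5 on the right. Filled points passed an adjusted p of 0.05, which were fli1a (1.42) and kdrl (−1.40) on the right and no gene on the left.

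The vessel genes were also set against fli1a in the same library, which removes the scale of the library. Per 100 fli1a reads there were 9.83 and 15.6 kdrl reads in the mutants (95% counting intervals 8.37 to 11.5 and 13.2 to 18.3), 99.5 in the library labelled UAS:Nr2f5 (80.5 to 123) and 15.2 in the control (12.9 to 17.8). Mutant 2 and the control overlap, mutant 1 is below them, and the library labelled UAS:Nr2f5 is far above. cdh5 had 2.62 and 3.30 reads per 100 fli1a reads in the mutants, 20.9 in the library labelled UAS:Nr2f5 and 9.68 in the control. Thus 3 levels are seen here, although in RPM that library and the control had a ratio of 1.01. flt4 was ordered like cdh5, at 2.12 and 2.20 in the mutants, 12.1 in the library labelled UAS:Nr2f5 and 7.15 in the control, although the intervals of that library and the control overlap (7.39 to 18.9 and 5.64 to 8.95).

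For tek the values were 0.838 and 2.20 reads per 100 fli1a reads in the mutants, 18.7 in the library labelled UAS:Nr2f5 and 2.44 in the control. For egfl7 they were 4.19 and 5.96 in the mutants, 13.7 in the library labelled UAS:Nr2f5 and 3.75 in the control, and here the mutants were not below the control. The 9 genes other than fli1a together had 19.8 and 31.0 reads per 100 fli1a reads in the mutants (17.6 to 22.2 and 27.4 to 35.1), 181 in the library labelled UAS:Nr2f5 (151 to 219) and 41.8 in the control (37.5 to 46.5). None of these 4 intervals overlap. Such ratios share fli1a, which itself differed between the libraries, and carry no test. fli1a was lowest in the library labelled UAS:Nr2f5, so a gene at a steady RPM comes out highest there. The order of these ratios was therefore partly built in. In RPM, the ratio of that library to the control was 0.793 for flt4, 1.01 for cdh5 and 1.08 for flt1. It was 1.18 for fli1b, 1.72 for egfl7, 2.96 for tie1, 3.08 for kdrl, 3.59 for tek and 7.88 for etv2.

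**Figure D3:**
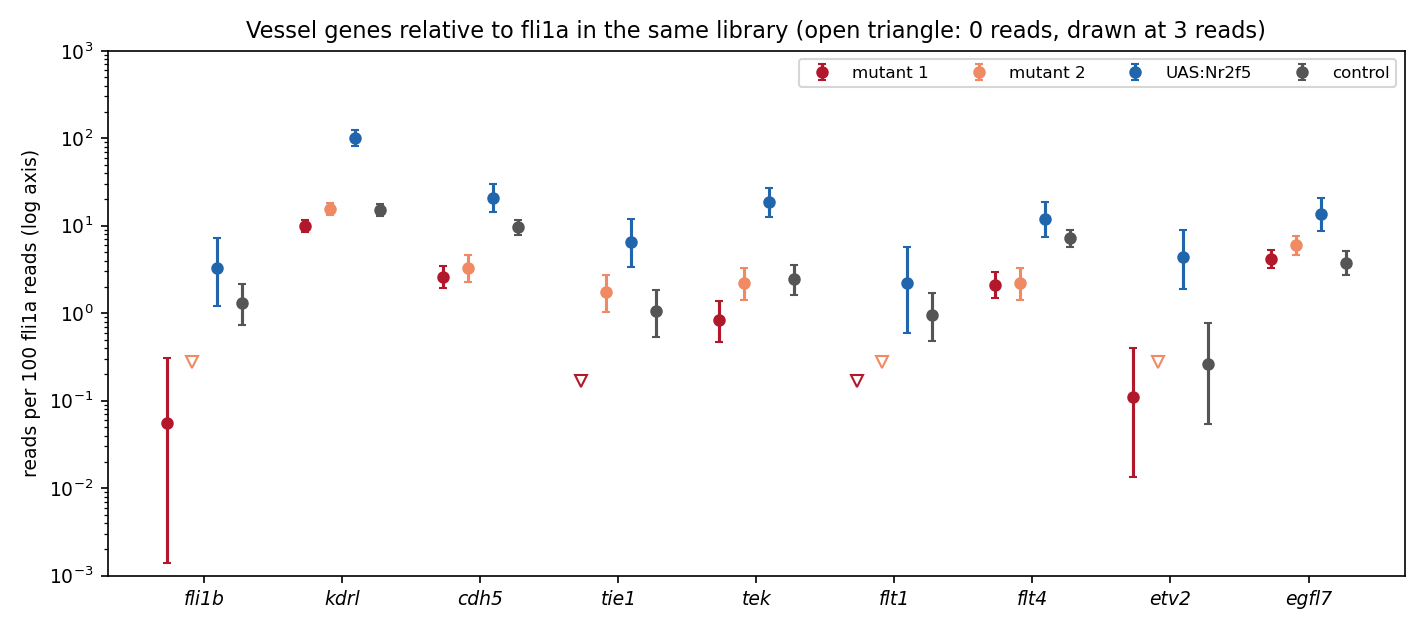
Reads of each of the other 9 vessel genes per 100 fli1a reads of the same library, on a log axis, for mutant 1, mutant 2, the library labelled UAS:Nr2f5 and the control, with 95% counting intervals. Open triangles mark genes with 0 reads, drawn at 3 reads. The library labelled UAS:Nr2f5 was highest for all 9, and kdrl reached 99.5 there, against 15.2 in the control. fli1a was lowest in that library, which by itself raises every gene there on this scale.

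As plain sums, the 9 genes other than fli1a came to 10.2 and 14.9 RPM in the mutants, 32.6 RPM in the library labelled UAS:Nr2f5 and 16.0 RPM in the control. Without kdrl as well, they came to 5.12 and 7.41 RPM in the mutants, 14.7 RPM in the library labelled UAS:Nr2f5 and 10.2 RPM in the control. Listed at 0 were 2 of the 9 in mutant 1 (tie1 and flt1), 3 in mutant 2 (fli1b, flt1 and etv2) and 0 in the other libraries. Of all 31953 genes, 19354 and 17028 were above 0 in the mutants, 16030 in the library labelled UAS:Nr2f5 and 20176 in the control. The genes at 0 had few reads in any library, and the libraries had unequal totals.

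Genes of other cell types also differed between these libraries. Muscle genes (11, led by ttnb, myhz1.1 and mylpfa, with tpma, pvalb1, pvalb2 and acta1b) summed to 35.6 and 52.9 RPM in the mutants, 4385 RPM in the library labelled UAS:Nr2f5 and 1317 RPM in the control. All 11 fell by limma in the mutants against each of the other groups, beside 8.92% of all genes against the library labelled UAS:Nr2f5 and 1.01% against the control. Epidermal genes (9, led by krt4, cyt1 and krt8, with krt5, krt91, epcam and cldni) summed to 206 and 163 RPM in the mutants, 2088 RPM in the library labelled UAS:Nr2f5 and 748 RPM in the control, although krt8 was at 131 and 129 RPM in the mutants, 89.0 RPM in the library labelled UAS:Nr2f5 and 98.7 RPM in the control. Neuronal genes (8, led by elavl3, stmn1b and elavl4, with snap25a, gap43 and isl1) summed to 14.6 and 8.996 RPM in the mutants, 114 RPM in the library labelled UAS:Nr2f5 and 80.9 RPM in the control. Of 8 tested genes in each list, limma called 6 epidermal and 7 neuronal genes lower in the mutants relative to the library labelled UAS:Nr2f5 (8.92% of all genes), and 2 (krt4 and krt5) and 1 (elavl3) lower against the control (1.01%).

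Genes of blood cells, which vessels carry, were summed likewise. Red blood cell genes (12 rows, led by hbae3 and 2 rows named hbbe1.1, with hbae1.1, hbbe3, slc4a1a and epb41b) summed to 122 and 53.3 RPM in the mutants, 408 RPM in the library labelled UAS:Nr2f5 and 490.5 RPM in the control. The embryonic globin gene hbae3 was at 47.2 and 17.4 RPM in the mutants, 156 RPM in the library labelled UAS:Nr2f5 and 195 RPM in the control. White blood cell genes (10, led by lyz, lcp1 and coro1a, with spi1b, mpx and myb) summed to 7.90 and 7.01 RPM in the mutants, 35.0 RPM in the library labelled UAS:Nr2f5 and 29.3 RPM in the control. Against the library labelled UAS:Nr2f5, limma called 7 of 10 tested red blood cell genes and 5 of 6 tested white blood cell genes lower in the mutants, beside 8.92% of all genes. Among those called, spi1b and myb would not have reached the filter on low values without that library. Against the control limma called 1 of the 10 and 0 of the 6 lower (1.01% of all genes), with 10 and 5 at an unadjusted p under 0.05 (13.2%). Of those 5, myb would not have reached the filter on low values without the control either. The white blood cell gene cebpa was too low to be tested and went another way, at 0.776 and 1.68 RPM in the mutants, 0 in the library labelled UAS:Nr2f5 and 1.54 RPM in the control. Globin genes include near-identical copies, and how reads were shared among such copies is not given in the sources used here. The sum of the arch crest genes (9, led by prrx1a, prrx1b and twist1a) was, like fli1a, highest in the mutants. It was 274 and 276 RPM in the mutants, 132 RPM in the library labelled UAS:Nr2f5 and 180 RPM in the control. Against the control limma called 0 of the 9 crest genes (1.04% of all genes), with 5 at an unadjusted p under 0.05 (13.2%). tfap2a was not above the control in both mutants, at 24.8 and 33.4 RPM against 25.8 RPM. The part of these other cell types in the vessel gene differences was not tested.

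**Figure D4:**
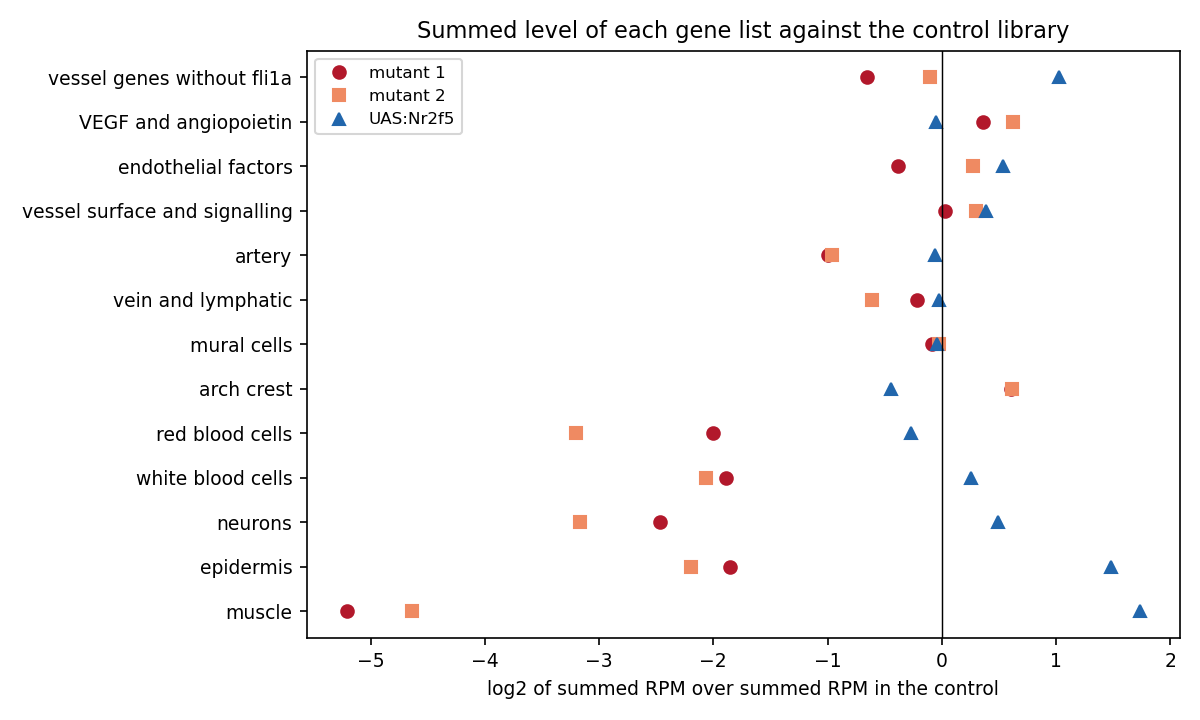
Summed RPM of each gene list in mutant 1, mutant 2 and the library labelled UAS:Nr2f5, as log2 of its ratio to the sum in the control, with the control at 0. Muscle genes lay furthest apart, at 35.6 and 52.9 RPM in the mutants, 4385 RPM in the library labelled UAS:Nr2f5 and 1317 RPM in the control, while mural cell genes summed to between 146 and 155 RPM. That mural sum joins opposite differences, with notch3 lower and cspg4 higher in both mutants than in the other libraries. The artery sum was 51.7 and 53.0 RPM in the mutants, 98.9 RPM in the library labelled UAS:Nr2f5 and 103 RPM in the control. Of it, notch1b made up 13.3 and 12.7, 71.8 and 70.5 RPM in the same order. Both mutants were above the control for 3 of the 5 tested artery genes and below it for 1, notch1b.

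Ligands and co-receptors of the VEGF and angiopoietin pathways were read next. Of 16 listed genes 11 were tested, and limma called 1 of them higher and 0 lower in the mutants against the control, and 3 higher and 1 lower against the library labelled UAS:Nr2f5. Of all genes, 0.0263% were higher and 1.01% lower against the control, and 11.2% higher and 8.92% lower against the library labelled UAS:Nr2f5. The median log2 differences of the 11 were 0.21 and 0.48, beside 0.03 and 0.17 over all genes tested. nrp1a, a co-receptor of VEGF and semaphorins, rose against both, at 50.6 and 59.1 RPM in the mutants, 17.6 RPM in the library labelled UAS:Nr2f5 and 21.1 RPM in the control (limma adjusted p = 0.00744 against the library labelled UAS:Nr2f5 and 0.0477 against the control). Without limma's trend the second call was lost (limma adjusted p = 0.153). Its paralog nrp1b went the other way, at 3.88 and 5.16 RPM in the mutants, 14.0 RPM in the library labelled UAS:Nr2f5 and 7.38 RPM in the control, and fell against the library labelled UAS:Nr2f5 (log2 difference −1.45 ± 0.29, limma adjusted p = 0.0249). The related co-receptor genes nrp2a and nrp2b were at 45.3 and 63.5 RPM and at 54.0 and 63.5 RPM in the mutants, 37.1 and 49.5 RPM in the library labelled UAS:Nr2f5 and 36.0 and 50.6 RPM in the control, and neither passed.

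Downstream of the receptors, plcg1, which encodes a phospholipase that relays VEGF signals, was at 39.4 and 45.1 RPM in the mutants, 22.0 RPM in the library labelled UAS:Nr2f5 and 30.3 RPM in the control. angpt1, the gene of the Tek ligand, was at 9.54 and 8.29 RPM in the mutants, 3.85 RPM in the library labelled UAS:Nr2f5 and 7.68 RPM in the control. Both rose in the mutants relative to the library labelled UAS:Nr2f5 (limma adjusted p = 0.0245 and 0.0472). When scaled to the crest list, both directions turned (log2 difference −0.44 and −0.15), and without limma's trend neither passed (limma adjusted p = 0.0908 and 0.0707). The ligand gene vegfaa was at 3.22 and 3.35 RPM in the mutants, 6.81 RPM in the library labelled UAS:Nr2f5 and 5.44 RPM in the control, without passing.

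Of 14 matched transcription factor genes of vessels, 7 were tested. Against the control limma called 0 of the 7, with 2 at an unadjusted p under 0.05 (tal1 and sox18, both lower). sox18 was at 0 and 0.441 RPM in the mutants, 1.68 RPM in the library labelled UAS:Nr2f5 and 2.20 RPM in the control. Without the control it would not have reached the filter on low values, so its being lower was partly built in. Against the library labelled UAS:Nr2f5 limma called 1 higher and 2 lower in the mutants. Over all genes the shares were 1.04% called and 13.2% unadjusted against the control, and 11.2% higher and 8.92% lower against the library labelled UAS:Nr2f5. The median log2 differences of the 7 were −0.03 and −0.15, beside 0.03 and 0.17 over all genes. tal1, a factor of blood and vessel precursors, was at 0.0575 and 0.794 RPM in the mutants, 3.95 RPM in the library labelled UAS:Nr2f5 and 2.74 RPM in the control (limma adjusted p = 0.0336 against the library labelled UAS:Nr2f5, and 0.0512 without limma's trend). The flow-responsive gene klf2b fell (2.07 and 3.35 RPM in the mutants, 10.9 RPM in the library labelled UAS:Nr2f5, 5.14 RPM in the control, limma adjusted p = 0.0284), and its paralog klf2a rose (3.65 and 4.81 RPM in the mutants, 0.790 RPM in the library labelled UAS:Nr2f5, 2.30 RPM in the control, limma adjusted p = 0.0388). ets1, the neighbour of fli1a, was at 4.02 and 4.85 RPM in the mutants, 4.84 RPM in the library labelled UAS:Nr2f5 and 2.60 RPM in the control, which was the lowest. ets2 and gata2a did not pass in either comparison.

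Among 24 surface and signalling genes of vessels, 9 were tested, and limma called 0 against the control (1.04% of all genes), with 1 at an unadjusted p under 0.05 (13.2% of all genes). Against the library labelled UAS:Nr2f5, 1 was higher and 2 were lower in the mutants, beside 11.2% and 8.92% of all genes. The median log2 differences were 0.03 in both comparisons, beside 0.03 over all genes against the control and 0.17 against the library labelled UAS:Nr2f5. cldn5b, a tight junction gene of vessels, was at 0.575 and 0.176 RPM in the mutants, 3.36 RPM in the library labelled UAS:Nr2f5 and 0.401 RPM in the control (limma adjusted p = 0.0222 against the library labelled UAS:Nr2f5). plvapb, a gene of vessel fenestrae, was at 0.517 and 0.706 RPM in the mutants, 3.55 RPM in the library labelled UAS:Nr2f5 and 1.503 RPM in the control (limma adjusted p = 0.0297). Without the library labelled UAS:Nr2f5, neither cldn5b nor plvapb would have reached the filter on low values. Their being lower than that library was therefore partly built into their being tested. ramp2, which encodes a partner of the adrenomedullin receptor, was at 2.99 and 2.95 RPM in the mutants, 0.0987 RPM (1 read) in the library labelled UAS:Nr2f5 and 3.07 RPM in the control (limma adjusted p = 0.0213). amotl2a, s1pr1 and dusp5 did not pass.

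Artery genes gave 1 limma call of 5 tested in the mutants relative to the control (lower, beside 1.01% of all genes). Relative to the library labelled UAS:Nr2f5 they gave 1 higher and 1 lower, beside 11.2% and 8.92% of all genes. Vein and lymphatic genes gave 0 calls of 3 tested relative to the control. At an unadjusted p under 0.05 there were 2 of the 3 (stab2 and prox1a, both lower), beside 13.2% of all genes. Relative to the library labelled UAS:Nr2f5, vein and lymphatic genes gave 1 call, lower (8.92% of all genes). Of 5 tested artery genes, notch1b fell in the mutants against both other groups, at 13.3 and 12.7 RPM, against 71.8 RPM in the library labelled UAS:Nr2f5 and 70.5 RPM in the control (limma adjusted p = 0.0023 against the library labelled UAS:Nr2f5 and 0.00459 against the control, the second 0.0706 without limma's trend). The median log2 difference of the 5 was −0.09 against the library labelled UAS:Nr2f5 and 0.19 against the control, beside 0.17 and 0.03 over all genes. Both mutants were above the control for 3 of the 5 (39.1% of all genes) and below it for 1, notch1b (33.2%). efnb2a, the ephrin gene of arteries, which crest also uses, was at 28.7 and 29.2 RPM in the mutants, 16.3 RPM in the library labelled UAS:Nr2f5 and 25.2 RPM in the control (limma adjusted p = 0.0312 against the library labelled UAS:Nr2f5). Its direction turned when scaled to the crest list (log2 difference −0.53), and without limma's trend it did not pass (limma adjusted p = 0.108). cxcr4a did not pass. Of 3 tested vein and lymphatic genes, the scavenger receptor gene stab2 fell against the library labelled UAS:Nr2f5, at 0.316 and 0.132 RPM in the mutants, 3.06 RPM in that library and 2.60 RPM in the control (limma adjusted p = 0.0204, and 0.0995 against the control). ephb4a, the partner of efnb2a on veins, was at 17.6 and 13.3 RPM in the mutants, 15.6 RPM in the library labelled UAS:Nr2f5 and 14.2 RPM in the control. prox1a was at 2.13 and 1.28 RPM in the mutants, 3.55 RPM in the library labelled UAS:Nr2f5 and 4.21 RPM in the control, and did not pass. The median of the 3 was −0.77 against the library labelled UAS:Nr2f5 and −0.96 against the control. Mural cell genes, led by notch3, cspg4 and pdgfrb, had 0 of 3 tested members called by limma in either comparison, with 1 at an unadjusted p under 0.05 in each. Over all genes, 1.04% were called against the control and 20.1% against the library labelled UAS:Nr2f5, with 13.2% and 37.4% at an unadjusted p under 0.05. The mural sums lay between 146 and 155 RPM in all 4 libraries. Within them, notch3 was lower and cspg4 higher in both mutants than in the other libraries. The mural genes acta2 and tagln were at 0 in both mutants and in the library labelled UAS:Nr2f5.

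The genes most like fli1a and kdrl over the 4 libraries were sought among the 5294 genes averaging 5 RPM or more, by the Euclidean distance between their log2(RPM + 1) values after each gene's own mean was removed. Nearest to fli1a were ltv1, bmp1a, aak1b, ddx27 and mab21l1, at distances of 0.0631 to 0.111. bmp1a, for one, was at 33.6 and 31.3 RPM in the mutants, 11.5 RPM in the library labelled UAS:Nr2f5 and 26.3 RPM in the control. The crest genes dlx2a and twist1a stood at ranks 105 and 110, snai2 at 748, prrx1a at 1412, sox10 at 1546 and kdrl at rank 5069. Nearest to kdrl were eef2k, mea1, uacab, gsr and lama5, at distances of 0.1097 to 0.3403, and fli1a stood at rank 5009. mea1, uacab and lama5 would not have averaged 5 RPM without the library labelled UAS:Nr2f5, nor ltv1 and aak1b without the mutants. Their likeness was therefore partly built into that filter. These ranks rest on 4 libraries and describe them only.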

How the data were processed

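The deposited table holds 31953 genes in 4 columns, each assigned to a library by its header and sample title. Its name calls the values TPM. They were taken as RPM as deposited by the authors, since most low values in a column are multiples of 1 step whatever the gene. Among values that would be 0.5 to 1000 reads, the share within 0.02 of a whole read was 88.4% and 90.4% in the mutants, 94.0% in the library labelled UAS:Nr2f5 and 89.4% in the control. The rest were fractional, so no test on counts was run. The columns sum to 14.8% to 15.8% of 1000000. TopHat2, Partek and GRCz10 were used, per the submitters' processing notes, with no versions or annotation given in the sources used here. Per the labels' protocols, cDNA was made with the SMARTer kit from sorted cells and read as 75-bp paired ends.

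limma 3.58.1 (R 4.3.3, eBayes with a trend) was fitted to log2(RPM + 1) of the 11391 genes averaging 1 RPM or more, with 1 mean per group over all 4 libraries and no covariates. Benjamini-Hochberg adjustment ran over all genes tested, with a threshold of 0.05. The fit was tested on data simulated with the same spread in every library. That test cannot show whether the lone libraries vary like the mutant pair. A fold on the log2(RPM + 1) scale understates the change of low genes. Ratios between single libraries carry exact Clopper-Pearson 95% intervals on reads rounded to whole numbers, and a gene at 0 was set to 3 reads in its library. A fold from that setting leaves out the counting error of the other library. Reads here are PCR copies without molecular identifiers, so these intervals and limits hold for counting error alone. Nothing in the labels says that the mutant libraries came from separate clutches, so their spread may be technical.

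The 10 genes and the 12 other lists were chosen with earlier results of these data known. The lists hold 136 genes, of which 134 were matched, 12 of them through tables of gene names. Genes named are the 10, sox10, nr2f2 and nr2f5, the 3 most abundant and the called members of each list (at most 6 where more passed), and the 5 nearest to fli1a and kdrl. One gene that this rule names is not reported here. Others (kdr, vegfaa, ets1, sox18, foxd3, cebpa, the mural genes at 0 and those of the closing section) were named after their values were seen. Alternatives were other pseudocounts, filters, scalings and priors, and leaving out libraries. Sequences were not used here.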

Additional observations from a re-analysis of the deposited data

How the results depend on the processing

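No paired analysis was possible because only the mutants have more than 1 library, so no replicate numbers are shared across groups. Without a mutant library limma has no residual degrees of freedom, so only values were recomputed.

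Genes called between the mutants and the control (118) were 52 with a pseudocount of 0.5, 22 with 0.1, 0 without a filter (3776 had an unadjusted p under 0.05), 413 among genes averaging 5 RPM or more, 24 without limma's trend, 2779 scaled to crest genes and, in an alternative added after seeing the data, 350 without the library labelled UAS:Nr2f5. Between the mutants and that library (2287) they were 1449 with 0.1, 0 without a filter (5311 unadjusted) and 7485 scaled to crest genes. Genes 2-fold apart between that library and the control (1818) were 2922 with 0.1, 484 among genes averaging 5 RPM or more and 2816 scaled to crest genes.

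Crest scaling puts the median of all genes at −0.62 for the mutants against the control, −0.997 against the library labelled UAS:Nr2f5 and 0.38 for that library against the control, where the values as deposited give 0.03, 0.17 and −0.11. With it 2 of the 6 tested vessel genes passed against the control (cdh5 and flt4), where 7 of all 11391 genes were called higher and 2772 lower. For the library labelled UAS:Nr2f5 it was 5 of the 6, where 418 genes were called higher and 7067 lower. Against that library 1 passed with a pseudocount of 0.1 (908 genes higher and 541 lower) or without the trend (678 and 875), and 0 of 10 without a filter. The median of the vessel genes against the control (−0.05) was 0.22 with the filter of 5 (2 genes), −0.56 scaled to crest genes, and −0.30 to 0.20 leaving out 1 mutant library at a time. Against the library labelled UAS:Nr2f5 (−0.78) it was −0.94 and −1.13 with pseudocounts of 0.5 and 0.1, −0.67 without a filter, 0.0122 with the filter of 5, −0.90, −0.82 and −1.72 under median-ratio, column-sum and crest scaling. For that library against the control (0.26) it was 0.32 and 0.38 with the pseudocounts, 0.21 with the filter of 5, 0.37 and 0.75 under median-ratio and crest scaling.

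Under crest scaling, differences from the control turned for fli1a (−0.42), kdrl (−0.61), egfl7 (−0.0111), efnb2a (−0.59), angpt1 (−0.53) and plcg1 (−0.32). Against the library labelled UAS:Nr2f5 they turned for egfl7 (−1.002), efnb2a (−0.53), angpt1 (−0.15), plcg1 (−0.44) and nr2f2 (−1.05), and for that library against the control for flt4 (0.19), nrp1a (0.30), plcg1 (0.11) and nr2f2 (0.0183). egfl7 also turned against the library labelled UAS:Nr2f5 under median-ratio (−0.11) and column-sum scaling (−0.0393). Leaving out 1 mutant library at a time, differences from the control ran from −0.17 to 0.32 for kdrl, from −0.44 to 0.0891 for tek and from −0.25 to 0.17 for cldn5b, and egfl7 ran from −0.14 to 0.16 against the library labelled UAS:Nr2f5. Apart from the changes in scale or in the genes tested that some of these settings make, the cause was not tested.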

Other observations

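Some vessel and blood genes were read in 1 library alone. vwf, the gene of von Willebrand factor, had 21 reads (2.07 RPM) in the library labelled UAS:Nr2f5 and 0 in the other libraries. It was 20.7-fold higher there than in the control set at 3 reads. hhex had 11 reads (0.485 RPM) in mutant 2 and 0 elsewhere. In the control alone were the endothelial factor gene erg (11 reads), the vessel tube gene rasip1 (19 reads), the blood stem cell gene runx1 (11 reads) and the smooth muscle genes acta2 and tagln (12 reads each). Over the whole table, genes with at least 10 reads in 1 library and 0 in all others numbered 167 in mutant 1, 75 in mutant 2, 83 in the library labelled UAS:Nr2f5 and 237 in the control. One read was worth 0.0987 RPM in the library labelled UAS:Nr2f5 and 0.0334 RPM in the control. A fixed number of reads is thus a different level in each library, and these counts depend on the read totals. The genes named here were chosen after their values were seen.

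Of the VEGF ligand genes, vegfd was at 2.44 and 1.90 RPM in the mutants, 0.790 RPM in the library labelled UAS:Nr2f5 and 0.468 RPM in the control, and vegfab at 1.32 and 1.102 RPM, against 0.889 RPM in the library labelled UAS:Nr2f5 and 2.40 RPM in the control. vegfc was at 2.30 and 2.65 RPM in the mutants, 1.48 RPM in the library labelled UAS:Nr2f5 and 1.94 RPM in the control. None of the 3 passed in either comparison, with limma adjusted p between 0.129 and 0.847, and vegfd had an unadjusted p under 0.05 in both. Without the mutants vegfd would not have reached the filter on low values, so its being higher there was partly built in. plxnd1, a semaphorin receptor gene of vessels, was at 0.661 and 1.76 RPM in the mutants, 4.64 RPM in the library labelled UAS:Nr2f5 and 1.14 RPM in the control (limma adjusted p = 0.0693 between the mutants and the library labelled UAS:Nr2f5).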
